A study of Mus musculus with 8 samples.

Results

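The genes described are those that build and cut the extracellular matrix of the liver: the collagen alpha chains, the laminin chains, the tissue inhibitors of metalloproteinases (TIMPs), the matrix metalloproteinases (MMPs) and the secreted ADAMTS proteases. They were chosen by symbol alone, as every row of the count table named Col, Lama, Lamb, Lamc, Timp, Mmp or Adamts with its numbers, a rule that uses no measured value. This gave 98 of 22946 rows, of which 43 were collagens, 11 laminins, 4 TIMPs, 21 MMPs and 19 ADAMTS genes. Col7a1 stands in a joined row with Mir711, and the reads of the pair cannot be told apart.

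Read counts came from RNA-seq of total RNA from livers of C57 Black mice that were put on a diet at an age of 8 weeks and kept on it for 8 weeks. The 4 groups held 2 libraries each: mice labelled MLL4 het on a high fat diet (HFD, libraries 7 and 8), mice labelled MLL4 het on chow (libraries 3 and 4), wild-type mice on HFD (libraries 5 and 6) and wild-type mice on chow (libraries 1 and 2). The series sets out to find genes that HFD alters in wild-type livers and alters less in MLL4 het livers. MLL4 methylates histone H3 at enhancers and is the product of Kmt2d. The labels give neither the allele nor the cells that carry it, and they do not say whether a library is 1 animal or a pool.

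Kmt2d, listed under the symbol Mll2, had 62.8 and 75.4 CPM (counts scaled to library size) in het-labelled HFD livers, 59.95 and 72.1 CPM in het-labelled chow livers, 63.3 and 64.7 CPM in wild-type HFD livers, and 61.2 and 69.6 CPM in wild-type chow livers. Its RNA was not lower under the het label, so these libraries are called het-labelled below. Library totals ran between 14142884 and 18928676 counts, so that 3 counts, used here as the floor of detection, correspond to between 0.161 and 0.213 CPM. Together the matrix genes accounted for 0.120% to 0.141% of each library. As a check of the liver label, 7 hepatocyte markers summed to between 71720 and 89608 CPM. The sum was lower in every HFD library (71720 to 75212 CPM) than in every chow library (81904 to 89608 CPM). The single markers did not all go this way. In the mean diet effect 3 of the 7 had positive and 4 had negative log2 values, from -0.43 to 0.43, and 1, Cps1, was called lower. The part of the lower sum in the diet results was not tested. Markers of sinusoidal endothelial cells summed to between 186 and 271 CPM, those of stellate cells to between 61.7 and 107 CPM, those of cholangiocytes to between 29.2 and 49.0 CPM, and those of myofibroblasts and portal fibroblasts to between 19.7 and 26.0 CPM. A liver lysate mixes these cells, and in all results below fewer cells of a type and less RNA per cell cannot be told apart.

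As background, collagens are secreted as helices of several alpha chains. Types I, III, V and XXVII form fibrils, type IV forms the network of basement membranes, and types XV and XVIII carry sugar chains and sit at basement membranes. Laminins join an alpha, a beta and a gamma chain and anchor cells to that network, whereas MMPs and ADAMTS proteases cut matrix proteins and TIMPs block the MMPs. In the liver, stellate cells are the main source of type I and III collagen when scar tissue forms, and the walls of the sinusoids normally hold little organised basement membrane.

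RefSeq windows of 250 bases before the transcription start (build GRCm38.p6) were found for 6 of the 9 called genes. Col27a1, Col5a3, Lamb3 and Col15a1 were each called higher on HFD in wild-type livers. Under the het label Col15a1 was called lower and Col4a5 higher. The windows of these 5 genes are printed here, 5′ to 3′ on the strand of the gene. They are Col27a1 (chr4:63215162-63215411, plus strand), Col5a3 (chr9:20815068-20815317, minus strand), Lamb3 (chr1:193301744-193301993, plus strand), Col15a1 (chr4:47207762-47208011, plus strand) and Col4a5 (chrX:141475169-141475418, plus strand). Capitals mark matches, on either strand, to the GC box (GGGCGG) or the CCAAT box.
Col27a1: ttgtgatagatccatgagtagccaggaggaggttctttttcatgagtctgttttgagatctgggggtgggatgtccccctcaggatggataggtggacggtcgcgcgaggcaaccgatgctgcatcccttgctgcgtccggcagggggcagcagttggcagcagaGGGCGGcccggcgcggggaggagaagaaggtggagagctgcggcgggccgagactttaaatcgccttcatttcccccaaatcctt
Col5a3: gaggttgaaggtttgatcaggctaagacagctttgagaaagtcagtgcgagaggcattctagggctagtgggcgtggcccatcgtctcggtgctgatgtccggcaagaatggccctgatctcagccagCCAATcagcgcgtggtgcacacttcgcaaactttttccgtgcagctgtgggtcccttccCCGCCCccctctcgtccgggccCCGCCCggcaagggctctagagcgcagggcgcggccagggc
Lamb3: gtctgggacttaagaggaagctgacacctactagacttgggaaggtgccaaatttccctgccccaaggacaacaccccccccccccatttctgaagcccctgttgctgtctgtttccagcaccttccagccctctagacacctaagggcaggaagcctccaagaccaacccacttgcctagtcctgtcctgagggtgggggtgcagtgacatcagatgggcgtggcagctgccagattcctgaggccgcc
Col15a1: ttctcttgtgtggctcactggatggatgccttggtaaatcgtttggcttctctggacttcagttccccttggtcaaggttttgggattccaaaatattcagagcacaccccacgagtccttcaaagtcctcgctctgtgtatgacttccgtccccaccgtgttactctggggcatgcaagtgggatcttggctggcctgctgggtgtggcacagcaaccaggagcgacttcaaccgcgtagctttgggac
Col4a5: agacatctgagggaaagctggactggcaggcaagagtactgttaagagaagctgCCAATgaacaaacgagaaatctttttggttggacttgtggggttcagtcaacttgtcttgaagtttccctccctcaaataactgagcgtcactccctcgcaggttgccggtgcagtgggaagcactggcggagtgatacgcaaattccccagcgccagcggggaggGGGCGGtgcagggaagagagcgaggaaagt
The GC box of Col27a1 begins 85 bases before the start, those of Col5a3 63 and 41 bases before it, and that of Col4a5 30 bases before it. The CCAAT box lies 122 bases before the start in Col5a3 and 196 bases before it in Col4a5. The printed windows of Lamb3 and Col15a1 held neither, and none of the 5 windows held TATAAA, the E-box CACGTG, the AP-1 motif TGANTCA or the nuclear receptor core motif AGGTCA. Lamb3 has a second window (chr1:193301993-193302242, plus strand), which is not printed and held none of these motifs. Over all 32851 windows of the same length, GGGCGG was present in 32.7%, CCAAT in 33.8%, TATAAA in 12.4%, CACGTG in 6.02%, TGANTCA in 6.75% and AGGTCA in 14%. No 2 of these motifs overlap in the printed windows. A match is a run of letters and not a shown binding site, and a link between these motifs and the direction of a change was not tested.

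Of the 98 members, 56 passed the edgeR filter on low counts and were tested, and 42 were not. Among the 42, Adamts18, Adamts19, Adamts20, Col6a4, Col9a1, Col11a1, Mmp10 and Mmp20 had 0 counts in all 8 libraries, and 34 had some reads. The highest count of an untested member in any library was 20, for Mmp27 in het-labelled chow library 3. All 11 laminins passed, against 26 of 43 collagens, 10 of 19 ADAMTS genes, 7 of 21 MMPs and 2 of 4 TIMPs. A member can pass because it is high in 1 group only, so the tested members do not stand for all 98. The mean over the 8 libraries was at least 1 CPM for 43 members and at least 10 CPM for 13.

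Set against exon length (CPM per kb of merged exon in GENCODE M21), Col18a1, which encodes the collagen XVIII core protein and the endostatin fragment within it, stood apart from every other member. It had between 102 and 129 CPM per kb, with a mean of 122, and the highest single value of any other member was 20.3 CPM per kb. Mmp19, a secreted metalloproteinase, followed at a mean of 16.1 CPM per kb (11.9 to 20.3), and Col5a3, a chain of collagen V, at 10.4 (6.67 to 16.1). These 2 genes overlap across libraries, as does Col5a3 with Col27a1, a chain that forms thin fibrils, at 8.87 CPM per kb (5.40 to 15.1). The membrane-type proteases Mmp15 and Mmp14 averaged 6.48 and 4.49 CPM per kb, and Col14a1, which coats fibrils, 5.09. The fibril chains best known from scar tissue were lower, with means of 4.12 CPM per kb for Col3a1, 1.61 for Col1a2 and 0.648 for Col1a1. Col18a1 alone had 860 and 810 CPM in het-labelled HFD livers, 690 and 845 CPM in het-labelled chow livers, 801 and 850 CPM in wild-type HFD livers, and 871 and 876 CPM in wild-type chow livers. Het-labelled chow library 3 was the lowest, and the groups overlap except that both wild-type chow libraries lie above all others.

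**Figure D1:**
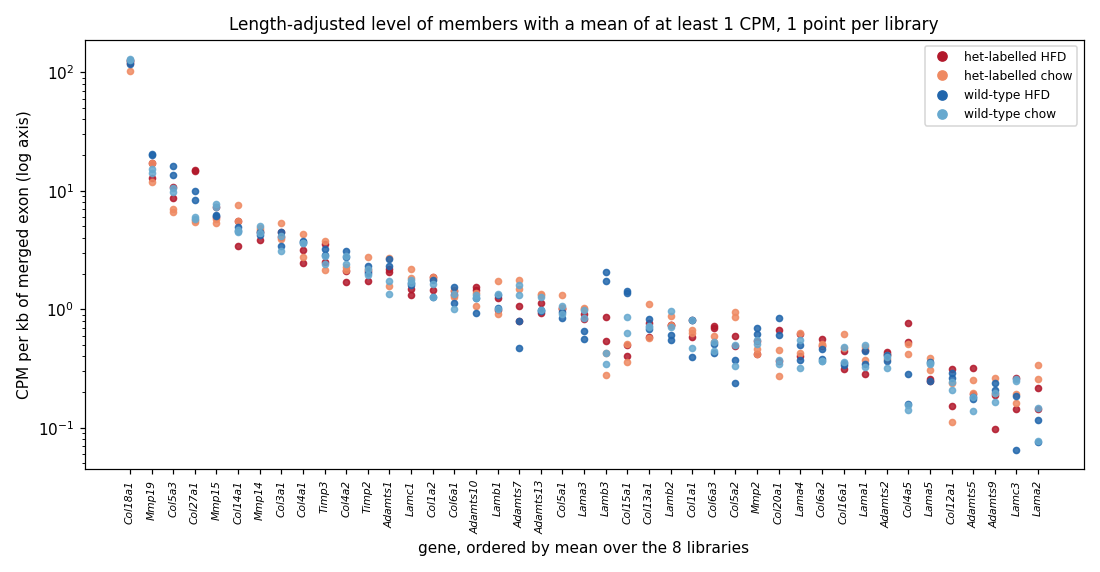
Level of each matrix gene with a mean of at least 1 CPM, in CPM per kb of merged exon on a log axis, with 1 point for each of the 8 libraries coloured by group and genes ordered by their mean. Col18a1 lies between 102 and 129 CPM per kb, above the next gene, Mmp19, at 11.9 to 20.3, and Col1a1 averages 0.648.

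Few of the 56 tested members changed, so the share called in each comparison rests on few genes. Members were called more often than all rows in the wild-type diet comparison, the genotype comparison on HFD and the mean genotype effect. The shares were close in the mean diet effect, and under the het label the diet called a smaller share of members than of all rows. With edgeR's quasi-likelihood test over all 12593 tested rows, HFD against chow called 1 member in het-labelled livers, which was higher, at a background of 3.02% of all rows called (1.53% higher, 1.48% lower). In wild-type livers it called 5 members, 4 higher and 1 lower, at a background of 4.59% (2.37% higher, 2.22% lower). The mean diet effect over both genotypes called 3 higher and 3 lower members, at a background of 10.4% (5.56% higher, 4.84% lower). Of the lower members, Col25a1 passed the filter on low counts only through chow libraries. Het-labelled against wild-type called 1 higher and 1 lower member on HFD, at a background of 0.445% (0.0953% higher, 0.349% lower). On chow it called 0 members, at a background of 0.516% (0.326% higher, 0.191% lower), with 8 members and 1932 rows at an unadjusted p under 0.05 by edgeR, and 2 members and 227 rows called by DESeq2. The mean genotype effect over both diets called 2 higher and 2 lower members, at a background of 3.24% (1.21% higher, 2.03% lower). The interaction of genotype and diet called 0 members and 0 rows in all, a background of 0.00%.

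Separation of the libraries was counted as well. HFD and chow libraries did not overlap for 30 of the 56 tested members in het-labelled livers, 11 higher and 19 lower (53.6%), where 44.7% of all tested rows did not overlap (22.3% higher, 22.4% lower). In wild-type livers they did not overlap for 28 members, 17 higher and 11 lower, where 55.9% of all rows did not overlap (30.6% higher, 25.2% lower). Het-labelled and wild-type libraries did not overlap on HFD for 15 higher and 10 lower members (44.6%, against 47.1% of rows, 22.8% higher and 24.3% lower). On chow they did not overlap for 16 higher and 10 lower members (46.4%, against 45.9% of rows, 24.0% higher and 21.9% lower). All 4 HFD libraries lay above all 4 chow libraries for 3 members and below them for 2 (8.93%, against 13.1% of rows, 7.19% higher and 5.88% lower). All 4 het-labelled libraries lay above all 4 wild-type libraries for 4 members and below them for 2 (10.7%, against 8.35% of rows, 4.11% higher and 4.24% lower). With 2 libraries a group, such separation is common among all genes. The tested members had a median log2 diet difference of -0.03 under the het label and 0.04 in wild-type livers, beside -0.01 and 0.02 over all rows. For the genotype it was 0.03 on HFD and 0.17 on chow, beside 0.00 and 0.01 over all rows.

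**Figure D2:**
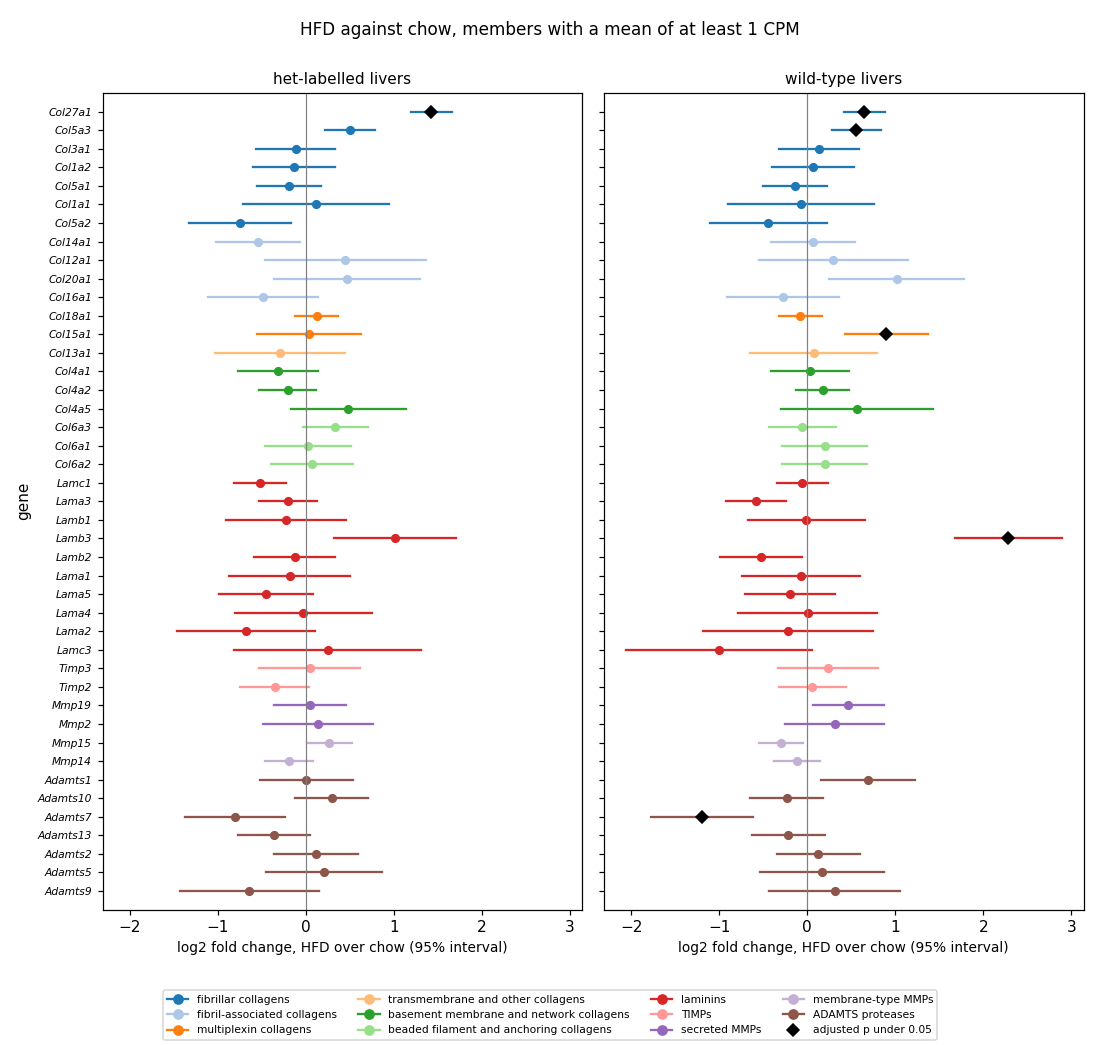
Log2 fold change of HFD over chow with its 95% interval for each matrix gene with a mean of at least 1 CPM, in het-labelled (left) and wild-type (right) livers, coloured by role. Black diamonds mark an adjusted p under 0.05: Col27a1 (1.42) in het-labelled livers, and Lamb3 (2.29), Col15a1 (0.90), Col27a1 (0.65), Col5a3 (0.56) and Adamts7 (-1.20) in wild-type livers.

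Among the fibril-forming collagens, Col27a1 rose on HFD in both genotypes and Col5a3 rose with the diet in wild-type livers and on the mean of both genotypes, while the classical scar collagens did not pass any test. Of 11 such genes 8 were tested. HFD called 1 of them higher in het-labelled livers, 2 higher in wild-type livers and 2 higher in the mean, with 0 lower in each. Of all rows, 1.53%, 2.37% and 5.56% were called higher in these comparisons. Their median log2 difference in the mean diet effect was 0.01, beside 0.01 over all rows.

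Col27a1 (chromosome 4), a fibril chain known from cartilage, had the smallest edgeR adjusted p of any member in the mean diet effect and in the diet comparison under the het label, while in wild-type livers that of Lamb3 was smaller. It had 115 and 111 CPM in het-labelled HFD livers, against 41.1 and 43.3 CPM in het-labelled chow livers. In wild-type livers it had 63.7 and 76.3 CPM on HFD and 43.9 and 45.5 CPM on chow. Every HFD library lay above every chow library, and the het-labelled HFD libraries lay highest of all. The group means were 113 ± 2.64 CPM in het-labelled HFD and 42.2 ± 1.53 CPM in het-labelled chow livers, and 70.0 ± 8.92 CPM in wild-type HFD and 44.7 ± 1.13 CPM in wild-type chow livers (SD, n = 2 each). HFD raised it by a log2 fold change of 1.42 ± 0.10 (SE) in het-labelled livers (2.68-fold, edgeR adjusted p = 0.000528) and by 0.65 ± 0.10 in wild-type livers (1.57-fold, edgeR adjusted p = 0.0116). The mean diet effect was 1.03 ± 0.07 (edgeR adjusted p = 0.000183). The result in wild-type livers was not called without library 1, 2 or 6 (edgeR adjusted p between 0.0759 and 0.127), whereas those in het-labelled livers and in the mean were called in every alternative tried.

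Between genotypes, Col27a1 was higher in het-labelled than in wild-type livers on HFD (log2 0.69 ± 0.10, edgeR adjusted p = 0.0331), and on chow the het-labelled libraries lay below both wild-type libraries by a small margin. The difference on HFD was not called without library 1, 2, 5, 6 or 8 (edgeR adjusted p between 0.0523 and 0.155) or when only the groups compared were fitted (edgeR adjusted p = 0.0694). The diet effect was larger in het-labelled than in wild-type livers by a log2 interaction of 0.78 (95% interval 0.45 to 1.10), with an unadjusted p of 0.000469 and an edgeR adjusted p of 0.422 over all rows. DESeq2 called this interaction at an adjusted p of 0.0435. In the annotation the miRNA Mir455 lies within Col27a1 on the same strand, and it had 0 counts in every library.

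Col5a3 (chromosome 9) encodes a chain of collagen V, which nucleates collagen I fibrils. Its level was 65.7 and 53.1 CPM in het-labelled HFD livers, 40.8 and 43.3 CPM in het-labelled chow livers, 84.0 and 98.4 CPM in wild-type HFD livers, and 59.8 and 64.2 CPM in wild-type chow livers. HFD libraries lay above chow libraries within each genotype, and het-labelled libraries lay below wild-type libraries within each diet. The mean diet effect was a log2 change of 0.53 ± 0.09 (1.44-fold, edgeR adjusted p = 0.00712), called in every alternative. Within a genotype the change was 0.50 ± 0.12 in het-labelled livers, which did not pass (edgeR adjusted p = 0.0730), and 0.56 ± 0.12 in wild-type livers, which did (edgeR adjusted p = 0.0391). The het-labelled change was called in 3 of 13 alternatives, and its log2 value ran from 0.34 to 0.65 over them all. The wild-type call was lost without library 1, 2, 5 or 6 (edgeR adjusted p between 0.0795 and 0.300). Averaged over both diets, Col5a3 fell by 0.59 on the log2 scale in het-labelled livers (SE 0.09, edgeR adjusted p = 0.0193), which was not called without library 1, 2, 3 or 6 (edgeR adjusted p between 0.0513 and 0.0991). Its difference was -0.62 on HFD and -0.56 on chow, neither of which passed by edgeR (adjusted p = 0.0735 and adjusted p = 0.0957), though DESeq2 called both.

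The other tested collagen V chains did not follow Col5a3. Col5a2 had 3.22 and 3.91 CPM in het-labelled HFD livers, 6.24 and 5.72 CPM in het-labelled chow livers, 2.48 and 1.59 CPM in wild-type HFD livers, and 3.34 and 2.20 CPM in wild-type chow livers. Het-labelled libraries lay above wild-type libraries within each diet. Averaged over both diets it rose by a log2 difference of 0.96 ± 0.19 in het-labelled livers (edgeR adjusted p = 0.0383), opposite in sign to Col5a3. That call was lost without library 1, 2, 3, 5, 6 or 8 (edgeR adjusted p between 0.0633 and 0.149), and within a diet the difference did not pass (0.80 on HFD, edgeR adjusted p = 0.264, and 1.11 on chow, edgeR adjusted p = 0.101). Col5a1, the chain that most collagen V molecules contain, had 8.64 and 8.53 CPM in het-labelled HFD livers, 8.58 and 11.02 CPM in het-labelled chow livers, 7.91 and 7.16 CPM in wild-type HFD livers, and 8.95 and 7.71 CPM in wild-type chow livers, and was not called in any comparison. Markers of Kupffer cells, the resident macrophages of the liver, also differed under the het label. Their sum over 6 genes was 185 and 114 CPM in het-labelled HFD livers, 346 and 267 CPM in het-labelled chow livers, 109 and 115 CPM in wild-type HFD livers, and 119 and 108 CPM in wild-type chow livers. The part of these cells in the Col5a2 result was not tested.

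Col1a1, Col1a2 and Col3a1, the chains of the collagens that make up most scar tissue, showed no diet effect that could be told from 0. Col1a1 had 4.77 and 3.48 CPM in het-labelled HFD livers and 3.97 and 3.74 CPM in het-labelled chow livers, beside 4.85 and 2.35 CPM in wild-type HFD and 4.79 and 2.78 CPM in wild-type chow livers. Col3a1 had 24.9 and 22.7 CPM in het-labelled HFD livers and 29.9 and 21.8 CPM in het-labelled chow livers, beside 25.0 and 18.9 CPM in wild-type HFD and 23.0 and 17.2 CPM in wild-type chow livers. The 4 groups overlap for both genes, and within a wild-type group the libraries of Col1a1 differ more than the groups do. The mean diet effect was a log2 change of 0.02 for Col1a1 (95% interval -0.57 to 0.61), -0.04 for Col1a2 (-0.37 to 0.29) and 0.01 for Col3a1 (-0.31 to 0.33), with edgeR adjusted p of 0.973, 0.912 and 0.986.  The sign of each of the 3 values turned in some alternatives. Timp1, the TIMP most often measured in scarring, was near the floor, with 0 and 0 counts in het-labelled HFD, 1 and 1 for het-labelled chow, 1 and 4 for wild-type HFD, and 2 and 1 for wild-type chow.

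**Figure D3:**
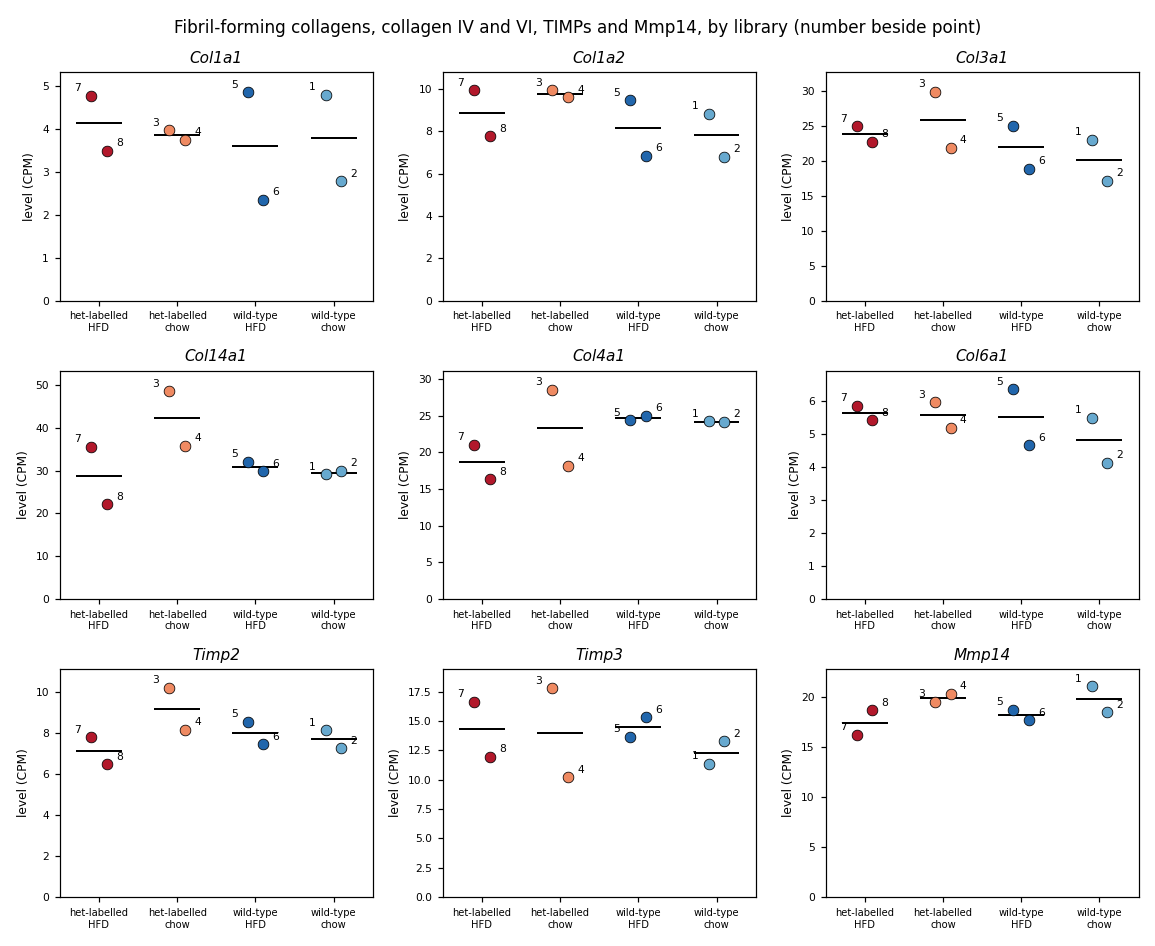
Level in CPM of the fibril chains Col1a1, Col1a2 and Col3a1, the fibril coat Col14a1, Col4a1, Col6a1, the inhibitors Timp2 and Timp3, and the protease Mmp14, with 1 numbered point per library and a line at the mean of each group. The groups overlap for Col1a1, which runs from 2.35 to 4.85 CPM, and for Col3a1, which runs from 17.2 to 29.9 CPM.

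The multiplexins differed from each other. Col18a1, the abundant member described above, was not called in any comparison. Col15a1 (chromosome 4), a collagen of basement membranes around vessels, had 2.41 and 2.99 CPM in het-labelled HFD livers, 3.05 and 2.18 CPM in het-labelled chow livers, 8.25 and 8.58 CPM in wild-type HFD livers, and 3.78 and 5.22 CPM in wild-type chow livers. Both wild-type HFD libraries stood highest, and all 4 het-labelled libraries lay below all 4 wild-type libraries. Its group means were 2.70 ± 0.405 CPM in het-labelled HFD and 8.42 ± 0.235 CPM in wild-type HFD livers (SD, n = 2 each).

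On HFD, Col15a1 fell by 1.65 on the log2 scale in het-labelled against wild-type livers (SE 0.22, 3.14-fold lower, edgeR adjusted p = 0.0304), and averaged over both diets it fell by 1.22 (SE 0.17, edgeR adjusted p = 0.0151). On chow the log2 difference was -0.79 and did not pass (edgeR adjusted p = 0.183). HFD raised it in wild-type livers by 0.90 ± 0.21 (1.86-fold, edgeR adjusted p = 0.0474). The interaction was -0.86 (95% interval -1.62 to -0.10) and was not called (edgeR adjusted p = 0.684). The wild-type diet call lies close to the threshold: it was lost with RLE size factors (edgeR adjusted p = 0.0503), with the filter of at least 1 CPM in 2 libraries (edgeR adjusted p = 0.0506), with DESeq2 (adjusted p = 0.0859) and without library 1, 2, 5 or 6 (edgeR adjusted p between 0.0966 and 0.350). The call on HFD was lost without library 1, 2, 5, 6, 7 or 8 (edgeR adjusted p between 0.0523 and 0.108), and that over both diets only without library 2 (edgeR adjusted p = 0.0761). GENCODE M21 shows 14 exon bases of Col15a1 shared with the antisense transcript Gm12426, and the labels do not say whether strand was kept.

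**Figure D4:**
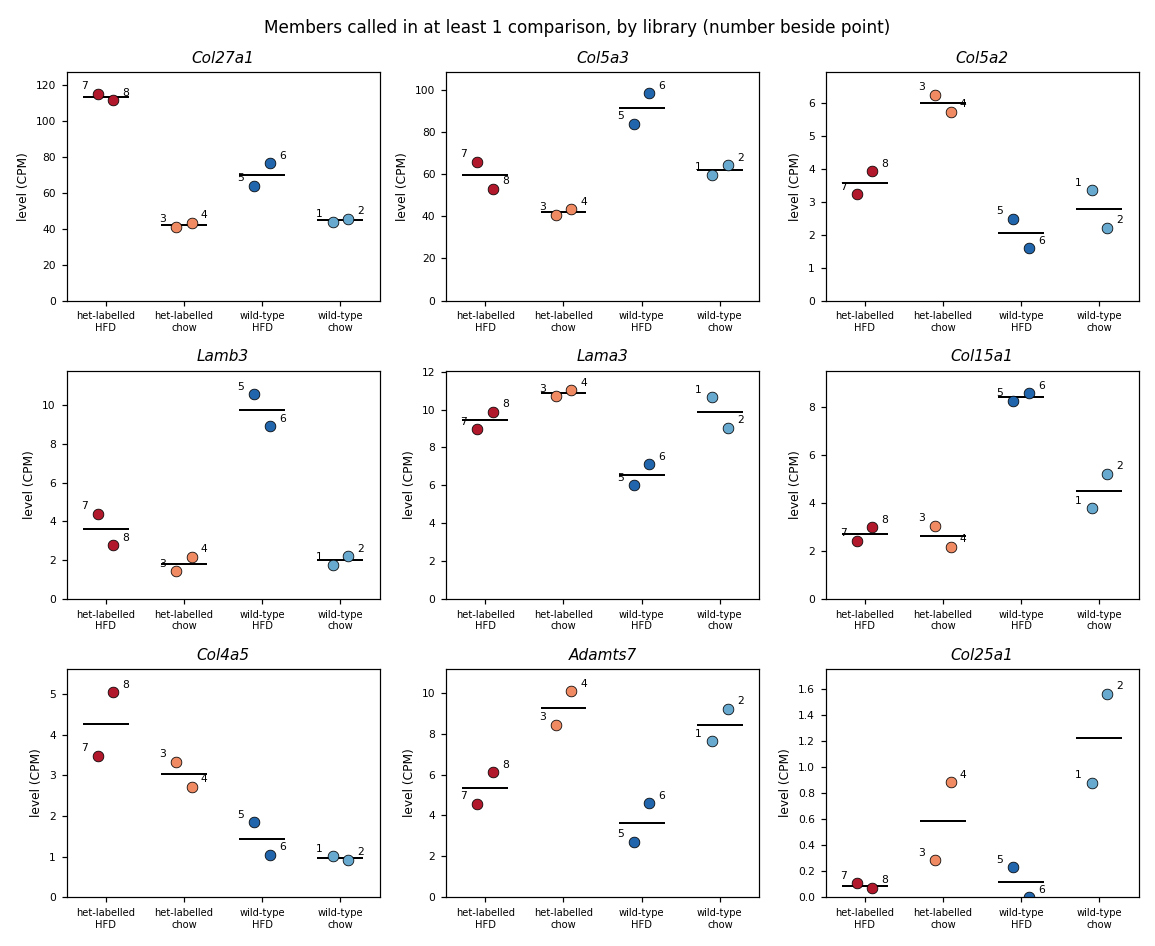
Level in CPM of the 9 matrix genes called in at least 1 comparison, with 1 numbered point per library and a line at the mean of each group. Col27a1 stands highest in het-labelled HFD livers (115 and 111 CPM), Lamb3 and Col15a1 stand highest in wild-type HFD livers (10.6 and 8.91 CPM, and 8.25 and 8.58 CPM), and Col4a5 is higher in het-labelled than in wild-type livers on both diets.

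Of the collagens of basement membranes and networks, 5 of 9 were tested. Of these 1 was called, in the mean genotype effect, where 3.24% of all rows were called. Col4a5 (chromosome X), a chain of the collagen IV network best known from the kidney, had 3.49 and 5.05 CPM in het-labelled HFD livers, 3.33 and 2.72 CPM in het-labelled chow livers, 1.85 and 1.04 CPM in wild-type HFD livers, and 1.01 and 0.928 CPM in wild-type chow livers. All 4 het-labelled libraries lay above all 4 wild-type libraries. Averaged over both diets it rose in het-labelled livers by a log2 difference of 1.59 ± 0.23 (3.02-fold, edgeR adjusted p = 0.0189). Without library 1, 2 or 3 this did not pass (edgeR adjusted p between 0.0520 and 0.0991). The difference was of similar size on HFD (1.55, edgeR adjusted p = 0.0736) and on chow (1.64, edgeR adjusted p = 0.0842), and neither passed alone, although DESeq2 called both.

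The common collagen IV pair, Col4a1 and Col4a2, went the other way or not at all. Col4a2 had 13.5 and 10.95 CPM in het-labelled HFD livers, 14.5 and 13.9 CPM in het-labelled chow livers, 17.9 and 20.0 CPM in wild-type HFD livers, and 18.0 and 15.6 CPM in wild-type chow livers. All 4 het-labelled libraries lay below all 4 wild-type libraries, yet the mean genotype difference of -0.43 did not pass (95% interval -0.65 to -0.21, edgeR adjusted p = 0.0512), while RLE size factors (adjusted p = 0.0466), the 2 other filters (0.0200 and 0.0497) and DESeq2 (0.0497) each called it. Col4a1, its partner in the same molecule, had 20.98 and 16.3 CPM in het-labelled HFD livers, 28.5 and 18.2 CPM in het-labelled chow livers, 24.4 and 25.0 CPM in wild-type HFD livers, and 24.2 and 24.1 CPM in wild-type chow livers, with the het-labelled chow libraries on both sides of the wild-type ones. Col4a3, Col4a4 and Col4a6 had at most 19, 6 and 3 counts in a library.

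No collagen that coats fibrils or forms beaded filaments was called. Col14a1, which binds the surface of collagen fibrils, had 35.6 and 22.1 CPM in het-labelled HFD livers, 48.6 and 35.9 CPM in het-labelled chow livers, 32.0 and 29.9 CPM in wild-type HFD livers, and 29.1 and 30.0 CPM in wild-type chow livers. Both het-labelled chow libraries lay highest, and libraries 3 and 7 lay above their partners 4 and 8. Col12a1, Col16a1 and Col20a1 of the same class ranged from 1.36 to 3.81, 1.64 to 3.19 and 1.42 to 4.32 CPM. The collagen VI chains Col6a1, Col6a2 and Col6a3, which assemble into microfibrils around cells, ranged from 4.12 to 6.35, 2.20 to 3.38 and 4.65 to 7.83 CPM. For Col6a3 the levels were 7.83 and 7.54 CPM in het-labelled HFD livers and 6.45 and 5.78 CPM in het-labelled chow livers, against 5.54 and 4.65 CPM in wild-type HFD livers and 5.73 and 4.87 CPM in wild-type chow livers, so that all het-labelled libraries lay above all wild-type ones without a call.

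Col25a1, a transmembrane collagen known from neurons, was called lower on HFD at very low counts. It had 2 and 1 counts in het-labelled HFD libraries, 4 and 13 counts in het-labelled chow libraries, 4 and 0 counts in wild-type HFD libraries, and 14 and 27 counts in wild-type chow libraries. The HFD libraries are at or near the floor of 3 counts, and het-labelled chow library 3 is close to it. It passed the filter through the chow libraries in which it is high, so the call is in the direction that the filter favours, and no fold is given. The mean diet effect was called (edgeR adjusted p = 0.0247), and the call was lost without library 2, 4, 6, 7 or 8 (edgeR adjusted p between 0.0535 and 0.114). Col13a1, the other tested transmembrane collagen, ranged from 1.84 to 3.54 CPM and was not called.

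Among the 11 laminin chains, 1 rose and 1 fell in the mean diet effect (Lamb3 and Lama3), where 5.56% of all rows were called higher and 4.84% lower. Set against exon length, Lamc1, the gamma chain of most laminins, had the highest mean of the 11, at 1.69 CPM per kb. In the mean diet effect 10 of the 11 log2 values were negative, where 6113 of all 12593 rows were negative. The median of the laminins was -0.33, beside 0.01 over all rows. Of these 10 chains only Lama3 passed. Within a genotype the laminin median was smaller. It was -0.21 in het-labelled livers (9 of 11 negative) and -0.07 in wild-type livers (8 of 11 negative), beside -0.01 and 0.02 over all rows.

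Lamb3 (chromosome 1) encodes the beta chain of laminin-332, a laminin of epithelial anchoring sites such as those of the skin. It had 4.40 and 2.77 CPM in het-labelled HFD livers, 1.42 and 2.18 CPM in het-labelled chow livers, 10.6 and 8.91 CPM in wild-type HFD livers, and 1.76 and 2.20 CPM in wild-type chow livers. The wild-type HFD libraries stood well above all others, and the het-labelled HFD libraries lay between them and the chow libraries. HFD raised it in wild-type livers by a log2 fold change of 2.29 ± 0.27 (4.88-fold, edgeR adjusted p = 0.00354) and in the mean of both genotypes by 1.65 ± 0.20 (edgeR adjusted p = 0.00182), and both were called in every alternative. In het-labelled livers the change was 1.01 ± 0.30 and did not pass (edgeR adjusted p = 0.124). On HFD the het-labelled level differed from wild-type by -1.42 (95% interval -1.97 to -0.86), which did not pass (edgeR adjusted p = 0.0546). The filter of at least 1 count (edgeR adjusted p = 0.00539), DESeq2 (adjusted p = 0.00315) and the fits without library 3, 4 or 7 (edgeR adjusted p = 0.0448, 0.0444 and 0.0285) called it, and over all alternatives the adjusted p ran from 0.00315 to 0.269. The test of the difference between the diet effects gave a log2 interaction of -1.27 (95% interval -2.22 to -0.33, edgeR adjusted p = 0.628), so the diet effects were not shown to differ between the genotypes.

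Lamb3 shares its locus with G0s2, an inhibitor of triglyceride lipolysis, and Hsd11b1, a glucocorticoid-activating enzyme, both on the opposite strand in GENCODE M21 and with 0 exon bases in common with it. G0s2 had 124 and 40.9 CPM in het-labelled HFD livers, 12.7 and 8.30 CPM in het-labelled chow livers, 122 and 91.9 CPM in wild-type HFD livers, and 20.2 and 15.6 CPM in wild-type chow livers. It rose on HFD in both genotypes, by a log2 fold change of 2.98 ± 0.48 in het-labelled livers (edgeR adjusted p = 0.0190) and 2.58 ± 0.45 in wild-type livers (edgeR adjusted p = 0.0168). The het-labelled call was lost in a fit to only the groups compared (edgeR adjusted p = 0.0659) and without library 3 or 4 (edgeR adjusted p = 0.0526 and adjusted p = 0.0750) and the wild-type one without library 1, 2, 5 or 6 (edgeR adjusted p between 0.0514 and 0.132). The build of the counts is another one and the strand of the libraries is not given, and a part of G0s2 reads in the Lamb3 counts was not tested.

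Lama3, an alpha chain that joins Lamb3 in laminin-332, did not rise with it. Lama3 had 8.96 and 9.89 CPM in het-labelled HFD livers, 10.7 and 11.02 CPM in het-labelled chow livers, 6.002 and 7.11 CPM in wild-type HFD livers, and 10.6 and 9.04 CPM in wild-type chow livers. Within each genotype both HFD libraries lay below both chow libraries. It fell on HFD by 0.40 on the log2 scale in the mean of both genotypes (SE 0.10, edgeR adjusted p = 0.0445), a call that DESeq2 did not make (adjusted p = 0.139) and that was lost when any 1 of the 8 libraries was left out (edgeR adjusted p between 0.0611 and 0.163). Its exons share 197 bases with the antisense transcript Gm29200.

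Lamc1 had 11.3 and 10.03 CPM in het-labelled HFD livers, 16.8 and 14.02 CPM in het-labelled chow livers, 12.3 and 12.7 CPM in wild-type HFD livers, and 13.4 and 12.6 CPM in wild-type chow livers. The het-labelled libraries were the lowest of all on HFD and the highest on chow, with no call. Lama2, the alpha chain of muscle and nerve basement membranes, had 2.15 and 1.42 CPM in het-labelled HFD livers, 3.33 and 2.52 CPM in het-labelled chow livers, 0.750 and 1.15 CPM in wild-type HFD livers, and 0.756 and 1.45 CPM in wild-type chow livers. Its mean genotype difference was a log2 value of 1.15 (95% interval 0.54 to 1.77) and narrowly missed the threshold (edgeR adjusted p = 0.0565). Lamb1, the beta chain of many vessel laminins, ranged from 5.31 to 10.1 CPM with no separation of groups. Lamb2, Lama1, Lama4 and Lama5 ranged from 1.91 to 5.42 CPM and Lamc3 from 0.383 to 1.56 CPM, with no call.

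No TIMP or MMP was called in any comparison. Timp3, which is bound to the matrix, ranged from 10.2 to 17.8 CPM and Timp2 from 6.47 to 10.2 CPM. Timp3 was higher in both HFD than in both chow libraries of wild-type livers, and Timp2 was lower in both HFD than in both chow libraries under the het label, while the diets overlapped for Timp3 under the het label and for Timp2 in wild-type livers. Timp4 had at most 1 count. Mmp19, the highest secreted MMP, had 58.8 and 44.6 CPM in het-labelled HFD livers, 59.7 and 41.0 CPM in het-labelled chow livers, 69.3 and 69.9 CPM in wild-type HFD livers, and 52.4 and 48.3 CPM in wild-type chow livers. The wild-type HFD libraries lay above all others, and the het-labelled libraries of each diet lay far apart. Mmp2, a gelatinase of mesenchymal cells, ranged from 1.28 to 2.14 CPM.

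Mmp14, the membrane-bound activator of Mmp2, ranged from 16.2 to 21.04 CPM. Mmp15, another membrane-type MMP, had 37.7 and 30.7 CPM in het-labelled HFD livers, 27.4 and 29.8 CPM in het-labelled chow livers, 31.4 and 31.8 CPM in wild-type HFD livers, and 37.7 and 39.9 CPM in wild-type chow livers. HFD libraries lay above chow libraries under the het label and below them in wild-type livers, without a call. The proteases typical of inflamed or injured tissue were scarce. Mmp9, a gelatinase of neutrophils and macrophages, had 12 and 7 counts in het-labelled HFD, 10 and 26 in het-labelled chow, 5 and 6 in wild-type HFD, and 3 and 9 in wild-type chow libraries. Mmp12, the elastase of macrophages, had 1 to 5 counts and Mmp13, the collagenase of mouse liver repair, 0 to 3 counts, so a change in either was not detectable at this depth. Markers of recruited macrophages and neutrophils were as scarce, with a sum over 8 genes of 3.49 and 2.42 CPM in het-labelled HFD, 4.46 and 5.04 CPM in het-labelled chow, 2.37 and 1.86 CPM in wild-type HFD, and 2.96 and 2.43 CPM in wild-type chow livers, and Camp was at 0 counts in every library.

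Of the ADAMTS proteases 10 of 19 were tested and 1 was called, lower on HFD in wild-type livers and in the mean. In these comparisons 2.22% and 4.84% of all rows were called lower. Adamts7 (chromosome 9), a protease of cartilage and vessel matrix, had 4.56 and 6.12 CPM in het-labelled HFD livers, 8.43 and 10.1 CPM in het-labelled chow livers, 2.71 and 4.59 CPM in wild-type HFD livers, and 7.62 and 9.22 CPM in wild-type chow livers. All 4 HFD libraries lay below all 4 chow libraries. On HFD it fell by 1.003 on the log2 scale in the mean of both genotypes (SE 0.18, edgeR adjusted p = 0.00989), in every alternative, and by 1.20 in wild-type livers (SE 0.26, edgeR adjusted p = 0.0352). The wild-type call was lost without library 1, 2 or 5 (edgeR adjusted p between 0.122 and 0.191). In het-labelled livers the change was -0.81 ± 0.25 and did not pass (edgeR adjusted p = 0.130). Adamts7 shares 122 exon bases with Tbc1d2b on the opposite strand, whose levels ran from 23.3 to 38.6 CPM and were not called for the diet in either genotype.

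The other 9 tested ADAMTS genes did not pass. Adamts1, an aggrecan- and versican-cutting protease, had 10.8 and 10.2 CPM in het-labelled HFD livers, 13.3 and 7.69 CPM in het-labelled chow livers, 11.4 and 12.9 CPM in wild-type HFD livers, and 6.62 and 8.41 CPM in wild-type chow livers. Its HFD libraries lay above chow in wild-type livers only, and the het-labelled chow libraries differed by more than the wild-type groups did. Adamts13, the protease of von Willebrand factor that stellate cells secrete, ranged from 4.55 to 6.59 CPM, and Adamts10 from 5.54 to 9.17 CPM. Adamts2, Adamts5 and Adamts9 ranged from 0.782 to 3.43 CPM, and Adamts6, Adamts14 and Adamts15 from 0.189 to 1.56 CPM.

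**Figure D5:**
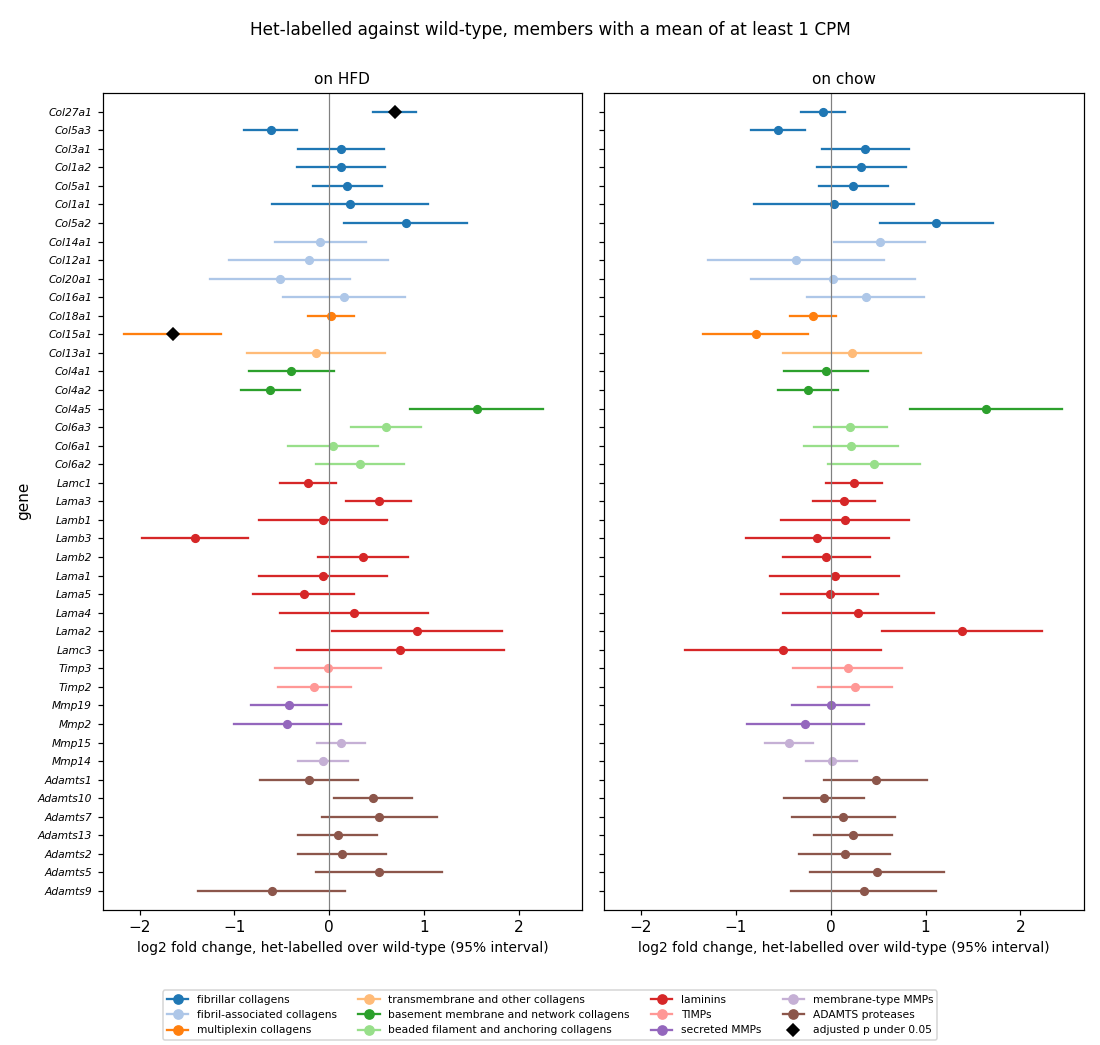
Log2 fold change of het-labelled over wild-type with its 95% interval for each matrix gene with a mean of at least 1 CPM, on HFD (left) and on chow (right), coloured by role. Black diamonds mark an adjusted p under 0.05: Col27a1 (0.69) and Col15a1 (-1.65) on HFD, and no gene on chow.

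The series asks whether HFD responses are smaller under the het label, and for the matrix genes the interaction of genotype and diet bears on this. The edgeR interaction test called 0 of the 56 members and 0 of 12593 rows, with 5 members and 900 rows at an unadjusted p under 0.05, and DESeq2 called 1 member (Col27a1) and 29 rows. Of the 5 members called for the diet in wild-type livers, Col27a1 had a larger log2 change under the het label (1.42 against 0.65), Col5a3 a similar one (0.50 against 0.56), and Lamb3 (1.01 against 2.29) and Adamts7 (-0.81 against -1.20) smaller ones. Col15a1 had 2.70 CPM on HFD and 2.61 CPM on chow under the het label, against 8.42 and 4.50 CPM in wild-type livers. None of these differences passed the edgeR test of the difference itself. The 5 genes were picked by their call in wild-type livers, which favours large wild-type values. Setting their changes side by side therefore cannot show whether responses are smaller under the het label. The diet comparisons of the 2 genotypes share no library, whereas each of them shares libraries with the genotype comparisons and with the interaction.

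Genes that process and sense the matrix were described from 4 lists by role. Their counts of calls are to be read beside the shares of all rows called, given above for each comparison. Of 22 tested genes of collagen processing and crosslinking, HFD called 1 lower in het-labelled livers and 1 lower in wild-type livers, the same gene, Loxl4, a lysyl oxidase-like enzyme that crosslinks collagen. Loxl4 had 1.39 and 0.996 CPM in het-labelled HFD livers, 4.32 and 6.12 CPM in het-labelled chow livers, 2.19 and 3.01 CPM in wild-type HFD livers, and 8.38 and 5.86 CPM in wild-type chow livers. All 4 HFD libraries lay below all 4 chow libraries. On the log2 scale Loxl4 fell by 2.10 in het-labelled livers (SE 0.32, edgeR adjusted p = 0.0165) and fell by 1.44 in wild-type livers (SE 0.27, edgeR adjusted p = 0.0228), and the mean diet effect of -1.77 (edgeR adjusted p = 0.00163) was called in every alternative. The wild-type call was lost without library 1, 2, 5 or 6 (edgeR adjusted p between 0.0532 and 0.184) and the het-labelled one without library 4 or 8 (edgeR adjusted p = 0.0558 and adjusted p = 0.0514). In the mean diet effect 2 genes of this list rose and 3 fell. Plod1, a lysyl hydroxylase of collagen, rose by 0.39 (edgeR adjusted p = 0.0149), lost without library 2, 5 or 6 (edgeR adjusted p between 0.0551 and 0.0732). Serpinh1, the collagen chaperone HSP47 and the fifth by p, named after its value was seen, rose by 0.53 (edgeR adjusted p = 0.0437). Ppib and Mia3, which fold and export procollagen, had log2 changes of -0.30 and -0.27 (edgeR adjusted p = 0.0363 each). Serpinh1 was lost with DESeq2 (adjusted p = 0.0539) and without library 1, 2, 4, 5, 6, 7 or 8 (edgeR adjusted p between 0.0611 and 0.160), Ppib without library 1, 3, 5, 6, 7 or 8 (0.0666 to 0.122) and Mia3 without library 1, 2, 3, 5, 6 or 8 (0.0538 to 0.135).

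Of 28 tested matrix glycoproteins and proteoglycans, such as fibronectin, decorin and the nidogens, edgeR called 0 in each of the 7 comparisons. Of 23 tested genes of TGF-beta, CTGF and PDGF signalling, HFD called 2 higher in het-labelled livers, 0 in wild-type livers, and 3 higher and 1 lower in the mean. Smad7, an inhibitor of TGF-beta receptors, had 13.5 and 14.6 CPM in het-labelled HFD livers, against 6.73 and 7.62 CPM in het-labelled chow livers, a log2 rise of 0.97 ± 0.14 (edgeR adjusted p = 0.0126, or 0.0563 in a fit to only these groups), and its mean diet effect of 0.63 (edgeR adjusted p = 0.00536) was called in every alternative. Cyr61, a matrix-bound signalling protein, had 14.4 and 32.3 CPM in het-labelled HFD livers, against 4.82 and 4.76 CPM in het-labelled chow livers, a log2 rise of 2.27 ± 0.36 (edgeR adjusted p = 0.0175) that was lost in a fit to only these groups (edgeR adjusted p = 0.0633) and without library 3 or 4 (edgeR adjusted p = 0.0659 and adjusted p = 0.0690). In wild-type livers Cyr61 had 12.6 and 9.73 CPM on HFD and 11.2 and 9.51 CPM on chow. In the mean diet effect Cyr61 rose by 1.19 (edgeR adjusted p = 0.0180), Ctgf rose by 0.93 (edgeR adjusted p = 0.0483) and Pdgfc fell by 0.67 (edgeR adjusted p = 0.0283). Cyr61 was lost without library 1, 2, 4 or 5 (edgeR adjusted p between 0.0534 and 0.0693), Ctgf with RLE size factors (0.0511), with the filter of at least 1 CPM in 2 libraries (0.0528) and without library 1, 2, 3, 4, 6 or 8 (0.0744 to 0.157) and Pdgfc without library 1, 2, 4, 5, 6 or 7 (0.0637 to 0.0928).

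Among 19 tested matrix receptors, HFD called 2 lower in het-labelled livers, 0 in wild-type livers and 1 lower in the mean. Itga5, the fibronectin integrin chain, had 21.2 and 21.2 CPM in het-labelled HFD livers, against 30.3 and 29.4 CPM in het-labelled chow livers, a log2 change of -0.49 (edgeR adjusted p = 0.0267), and its mean diet effect of -0.35 (edgeR adjusted p = 0.00989) was called in every alternative. Cd44, the hyaluronan receptor, had 5.58 and 3.77 CPM in het-labelled HFD livers, against 13.0 and 8.71 CPM in het-labelled chow livers, a log2 change of -1.19 (edgeR adjusted p = 0.0376). On chow Cd44 was higher in het-labelled than in wild-type livers, at 3.91 and 3.42 CPM, by a log2 difference of 1.56 ± 0.25 (edgeR adjusted p = 0.0463), and over both diets by 1.01 (edgeR adjusted p = 0.0271). Sdc3, a syndecan, was higher in het-labelled livers over both diets by 0.66 (edgeR adjusted p = 0.0483). Tgfbr3, which presents TGF-beta to its receptors, belongs to the signalling list above and not to the receptors. It was higher in the same comparison by 0.78 (edgeR adjusted p = 0.0406). Leaving out single libraries ended most of these calls. Itga5 in het-labelled livers was lost with DESeq2 (adjusted p = 0.0607), in the fit to only the groups compared (edgeR adjusted p = 0.133) and without library 1, 2, 3, 7 or 8 (edgeR adjusted p between 0.0596 and 0.0909). Cd44 was lost for the diet in the fit to only the groups compared (0.124) and without library 1, 2, 3, 5, 6 or 8 (0.0556 to 0.129), without library 1, 2, 3, 5 or 6 on chow (0.0802 to 0.326) and without library 1, 2, 3, 5, 6 or 7 over both diets (0.0542 to 0.124). Sdc3 was lost without library 1, 2, 3, 5 or 6 (0.111 to 0.180) and Tgfbr3 without library 1, 2, 3, 4, 5, 6 or 8 (0.0535 to 0.141). Cd44 moved with the Kupffer cell sum given above, and Sdc3 was likewise highest in het-labelled chow livers. The part of these cells in either gene was not tested.

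Libraries 7 and 3 stood above their partners over the matrix genes. Of the 43 members with a mean of at least 1 CPM, 34 (79.1%) were higher in het-labelled HFD library 7 than in library 8, where 51.6% of all rows of that level were, and 29 (67.4%) were higher in het-labelled chow library 3 than in library 4, where 49.7% of rows were. In wild-type livers 20 of 43 were higher in HFD library 5 than in library 6, and 24 of 43 in chow library 1 than in library 2. Cell markers moved with this. The stellate cell sum over 10 genes was 81.5 CPM in library 7 and 61.7 CPM in library 8, and 107 CPM in library 3 and 71.2 CPM in library 4. The endothelial sum over 9 genes was 238 CPM in library 7 and 188 CPM in library 8, and 271 CPM in library 3 and 190 CPM in library 4. The part of such cells in the spread of the matrix genes was not tested. Among the called members other than Col25a1 the order of these libraries was not uniform: Lamb3, Col27a1 and Col5a3 were higher in library 7 than in library 8, and Col4a5, Col5a2, Col15a1, Lama3 and Adamts7 were lower. The sum of 3 red cell genes was 350 and 371 CPM in het-labelled HFD livers, 240 and 253 CPM in het-labelled chow livers, 828 and 654 CPM in wild-type HFD livers, and 320 and 258 CPM in wild-type chow livers. Like Lamb3 and Col15a1 it was highest in both wild-type HFD libraries, and its part in those results was not tested.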

How the data were processed

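The values deposited by the authors are raw read counts per gene: whole numbers, with a different total in each library. The submitters' processing notes name CASAVA, TopHat2, HTSeq, DESeq and the genome build mm9. Versions, settings and the handling of strand and of reads with several matches are not given in the sources used here. Groups and library numbers were read from the titles. The labels do not tie the libraries of a group to separate animals, so p-values reflect only the spread between libraries, and this spread may be technical. Paired libraries were compared before averaging. Their counts differed beyond sampling noise, with chi-square over its degrees of freedom between 14.9 and 16.3, and all 8 were kept as samples.

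Counts were fitted with edgeR 4.0.16 in R 4.3.3: filterByExpr kept 12593 of 22946 rows, TMM factors scaled the libraries, and the quasi-likelihood fit had a mean for each of the 4 groups over all 8 libraries. Tests were 2-sided over 7 comparisons (diet in each genotype and on average, genotype on each diet and on average, and their interaction), with Benjamini-Hochberg adjustment over all tested rows and calls at an adjusted p under 0.05. SE and 95% intervals were calculated back from the log2 change and its statistic and are approximate. CPM were scaled with the TMM factors. The spread between libraries corresponded to a common biological coefficient of variation of 11.2%. The members, the role, pathway and marker lists and the tests were chosen with earlier results of these data known. The text names members called in any comparison, the 2 members of highest mean CPM in each role and a fixed panel. From each pathway list it names up to 4 called genes by smallest p, and Serpinh1 and Ctgf are named beyond these 4. Exon lengths and overlaps came from GENCODE M21 (GRCm38) and promoter windows from RefSeq (GRCm38.p6), and all 98 members were found in GENCODE M21. Not every member is given with its values here. No coordinate was converted from the build of the counts. The alternatives were RLE size factors, a filter of at least 1 count, a filter of at least 1 CPM in 2 libraries, DESeq2 1.42.0, fits to only the groups compared, and leaving out each library. The procedure was also run on simulated data with known changes. These data were drawn with the spread that the fit itself estimated. They therefore cannot show whether that spread is right for groups of 2 libraries.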

Additional observations from a re-analysis of the deposited data

Results flagged for a closer look

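In 4 of the 56 tested members (7.14%) every library of 1 group moved one way and every library of the other group the opposite way, a pattern shown by 8.13% of all tested rows. The edgeR interaction test, which asks whether such effects differ, did not call any of them over all 12593 rows. Col27a1 was higher in both het-labelled than in both wild-type libraries on HFD and lower in both on chow, with a log2 interaction of 0.78 (edgeR adjusted p = 0.422, and adjusted p = 0.0435 by DESeq2). Lamc1 was lower in both het-labelled libraries on HFD and higher in both on chow, with a log2 interaction of -0.47 (edgeR adjusted p = 0.690). Mmp15 was higher on HFD than on chow in both het-labelled libraries and lower in both wild-type libraries, with a log2 interaction of 0.56 (edgeR adjusted p = 0.588). Adamts9, a protease named here after its values were seen, was lower on HFD than on chow in both het-labelled libraries (1.502 and 0.782 CPM on HFD, 2.13 and 1.56 CPM on chow) and higher in both wild-type libraries (1.67 and 1.91 CPM on HFD, 1.32 and 1.57 CPM on chow), with a log2 interaction of -0.95 (edgeR adjusted p = 0.702).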

How the results depend on the processing

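Of 18 called results of members, 6 kept their call and direction in every alternative: Col27a1 for HFD in het-labelled livers (log2 1.39 to 1.46) and in the mean (0.97 to 1.079), Lamb3 for HFD in wild-type livers (2.12 to 2.46) and in the mean (1.45 to 1.81), Adamts7 (-1.22 to -0.86) and Col5a3 (0.45 to 0.60) for HFD in the mean. The other 12 lost the call in at least 1 alternative, none of the 18 changed sign, and the text gives where each was lost. Leaving out a library also changes the spread shared by all groups. A call can thus be lost without a library that is in neither group compared. For Col15a1 between genotypes on HFD, lost also without chow library 1 or 2, the log2 difference stayed between -1.80 and -1.49 in all alternatives. Leaving out a library leaves a group with 1 sample, which is then assumed to vary like the other groups. Among the named genes that are no members, 3 of 22 called results kept their call in every alternative, and none changed sign.

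The number of members called moved as follows, with the number of all rows called in brackets, and the causes were not tested. For HFD in het-labelled livers (1 called, 380 rows), DESeq2 called 2 (551 rows), a filter of at least 1 count 3 (680 rows), and leaving out a library gave 1 to 2 (144 to 293 rows). For HFD in wild-type livers (5 called, 578 rows), the fit to only the groups compared called 11 (1351 rows) and leaving out a library gave 1 to 7 (98 to 896 rows). For the mean diet effect (6 called, 1309 rows), leaving out a library gave 4 to 7 (546 to 1388 rows). For the genotype on HFD (2 called, 56 rows), DESeq2 called 5 (241 rows), the fit to only the groups compared 1 (26 rows), the filter of at least 1 count 6 (258 rows), and leaving out a library gave 0 to 4 (12 to 177 rows). For the genotype on chow (0 called, 65 rows), DESeq2 called 2 (227 rows) and the filter of at least 1 count 3 (314 rows). For the mean genotype effect (4 called, 408 rows), the filter of at least 1 count called 8 (760 rows) and leaving out a library gave 0 to 7 (23 to 722 rows). For the interaction (0 called, 0 rows), DESeq2 called 1 (29 rows).

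The near-zero mean diet effects of Col1a1, Col1a2 and Col3a1 changed sign in some alternatives. Leaving out a library gave -0.30 to 0.24 for Col1a1, -0.18 to 0.073 for Col1a2 and -0.12 to 0.13 for Col3a1, and Col3a1 was -0.0030 with RLE size factors, -0.0061 with rows of at least 1 count, -0.0097 with rows of at least 1 CPM in 2 libraries and -0.0037 with DESeq2. RLE size factors moved the median of all genes by at most 0.02 on the log2 scale in any comparison. No paired analysis was possible because the library numbers run from 1 to 8 and no number is shared between groups. With 2 libraries a group and counts of few reads, changes in Timp1, Mmp12, Mmp13 and the other members near the floor could not be seen.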
